A study of Mus musculus with 20 samples.

Results

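The left ventricle and the quadriceps of SJL/J mice were compared across all genes measured on an oligonucleotide array, to describe how heart and limb muscle differ in a mouse strain that lacks normal dysferlin. The comparison used 4 left ventricle arrays (numbers 2 to 5) and 3 quadriceps arrays (numbers 2 to 4), 7 of the 20 arrays of the series. They were chosen by their labelled tissue, strain and array number, after SJL/J left ventricle 1 and quadriceps 1 and 5 had been set aside because they carried transcripts of the other tissue. All mice were females studied at 32 to 34 weeks of age. SJL/J is an inbred strain whose dysferlin gene has a 171-bp in-frame deletion that removes 57 amino acids, and its limb muscles weaken spontaneously. Every SJL/J sample of both tissues carries this deletion, so the comparison holds no sample with normal dysferlin. C57BL/6 mice, the normal controls of the series, supplied 5 left ventricle and 5 quadriceps arrays, which are used here only to set the tissue difference of SJL/J beside that of a normal strain. SJL/J and C57BL/6 differ at many genes besides dysferlin, and the effect of strain and that of dysferlin cannot be told apart. The labels describe 5 mice and 5 biological replicates per strain and tissue, with no note of pooling or of which heart and muscle came from the same mouse, so p-values measure the spread between these arrays. The free text of the SJL/J quadriceps samples names left ventricle as the source of the RNA, whereas their titles, source names and keywords name quadriceps. The dysferlin gene itself has no probe set named for it here and was not analysed.

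Heart and limb muscle are both striated, and both shorten when myosin pulls on actin under the control of calcium, troponin and tropomyosin. Most of these proteins exist as isoforms encoded by separate genes, of which one is used in the heart and another in limb fibres. Heart cells beat without rest, burn mainly fatty acids, and are joined end to end by intercalated discs that carry force and current. Limb fibres are long single cells driven by motor nerves at endplates, and the fast fibres that fill the mouse quadriceps rely on glycogen and glycolysis for short bursts of work.

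The labelled tissues were checked against 8 heart and 11 limb muscle genes. The summed signal of the heart genes was 46456 to 53460 on the left ventricle arrays, against 594.5, 11667 and 993 on quadriceps 2, 3 and 4. The summed signal of the limb muscle genes was 661 to 923 on the left ventricle arrays, against 133887 to 144835 on the quadriceps arrays. Each tissue thus had its own markers, and quadriceps 3 also carried heart transcripts. Differences of some heart genes are therefore given with and without it, and all other differences include it. The 3 arrays set aside had heart sums of 47962 (left ventricle 1), 43331 (quadriceps 1) and 50176 (quadriceps 5), and limb sums of 34614, 66660 and 67051 in the same order. Because these transcripts decided which arrays were left out, the agreement of marker genes within each tissue was partly fixed by that choice. The Gapdh 5' to 3' signal ratio, a measure of RNA integrity, was 0.327, 0.335, 0.269 and 0.101 in left ventricle 2 to 5, against 0.663, 0.502 and 0.593 in quadriceps 2 to 4, with no overlap. The 4 left ventricle arrays were hybridised in 1 run (run 4) and the 3 quadriceps arrays in another (run 5), as inferred from the hybridisation times, so tissue and run cannot be told apart in these 7 arrays. Array values are signals on the deposited linear scale, listed in the order of array numbers throughout. In whole tissue, fewer cells of a type and less RNA per cell cannot be told apart.

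**Figure D1:**
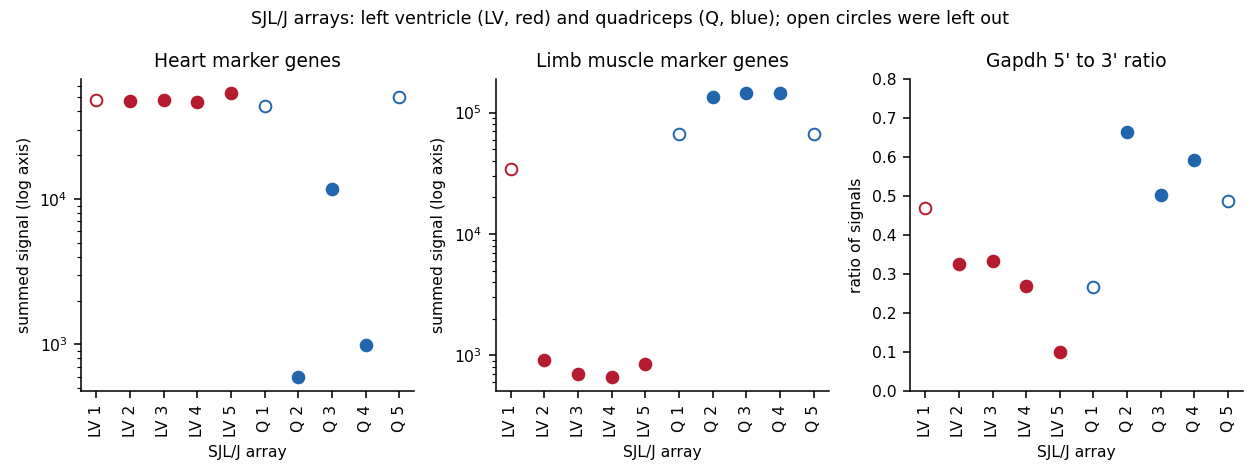
Summed signal of 8 heart genes (left, log axis) and 11 limb muscle genes (middle, log axis), and the Gapdh 5' to 3' signal ratio (right), for the 10 SJL/J arrays; filled circles are the 7 arrays compared and open circles the 3 set aside. Quadriceps 3 has a heart sum of 11667 against 594.5 and 993 on the other quadriceps arrays compared, and all left ventricle arrays compared have a Gapdh ratio of at most 0.335.

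Of 5315 genes tested, limma called 2957 (55.6%), with an adjusted p (Benjamini-Hochberg) under 0.05. In left ventricle, 1652 were higher (31.1%) and 1305 lower (24.6%) than in quadriceps, and the median log2 difference of all genes was 0.07. Counts in the gene lists below are to be read against these shares. With each array centred on its median the majority turned, with 1431 higher and 1496 lower (48.9% of the calls higher, against 55.9% as deposited) and a median of -0.01. At least 4-fold differences were found for 211 higher and 190 lower genes, and at least 32-fold differences for 11 higher and 25 lower genes. The signals of the groups did not overlap for 3080 genes (57.9%). With the Gapdh ratio as a covariate 1120 genes were called, and with all 10 SJL/J arrays 2053. The ratios did not overlap between the tissues, so this covariate cannot tell RNA integrity from tissue, here or below. With all 10 arrays and run as a block only 17 were called, a fit that rests on the mixed arrays of run 3.

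The 12 largest increases in left ventricle were in Myzap, Ryr2, Dsc2, Perp, Nppb, Dsp, Myl7, Cdh2, Myh6, Kcnd2, Frmd5 and Tnni3, with log2 differences between 4.83 and 7.46. The 12 largest decreases were in Myh4, Myh1, Tnnt3, Atp2a1, Mylpf, Actn3, Ryr1, Myl1, Tnnc2, Tbx15, Tnni2 and Myoz1, between -11.0 and -7.19. The order within both sets depends on signals near background. With signals under the median of 68.8 set to it, the increases became at least 3.22-fold (Kcnd2) to at least 49.7-fold (Nppb), with Myzap at 23.1-fold. The first set holds genes of cell junctions, contraction, calcium release, repolarisation and a cardiac hormone, and the second mainly genes of fast fibre contraction and calcium cycling. All 24 stayed called without quadriceps 3. With the Gapdh ratio as a covariate 3 of the 12 increases (Dsc2, Nppb and Cdh2) and all 12 decreases were called, and with all 10 SJL/J arrays 9 and 12. Promoter windows of 300 bases (250 before and 50 after the annotated start) are shown for 4 of them, because they let the most heart-biased hormone and light chain genes be read beside the most limb-biased myosin genes. Sequences are from RefSeq on GRCm38.p6, 5' to 3' on the gene's strand. Capitals mark matches on either strand to the E-box CANNTG, to TATAAA, to the MEF2 motif and to the CArG box of serum response factor. The first window is Nppb (chr4:147985650-147985949, plus strand), the second Myl7 (chr11:5898733-5899032, minus strand), the third Myh4 (chr11:67237562-67237861, plus strand) and the fourth Myh1 (chr11:67199852-67200151, plus strand).
Nppb: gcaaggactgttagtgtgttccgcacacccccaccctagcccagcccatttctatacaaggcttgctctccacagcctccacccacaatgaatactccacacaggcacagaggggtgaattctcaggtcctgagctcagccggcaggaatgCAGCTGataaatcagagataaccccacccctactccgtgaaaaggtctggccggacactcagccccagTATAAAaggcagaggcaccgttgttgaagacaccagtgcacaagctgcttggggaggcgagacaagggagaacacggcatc
Myl7: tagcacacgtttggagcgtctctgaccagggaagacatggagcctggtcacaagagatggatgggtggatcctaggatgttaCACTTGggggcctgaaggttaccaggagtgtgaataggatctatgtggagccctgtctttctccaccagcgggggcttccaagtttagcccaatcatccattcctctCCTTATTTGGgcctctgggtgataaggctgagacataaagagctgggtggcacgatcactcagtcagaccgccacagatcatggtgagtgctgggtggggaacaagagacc
Myh4: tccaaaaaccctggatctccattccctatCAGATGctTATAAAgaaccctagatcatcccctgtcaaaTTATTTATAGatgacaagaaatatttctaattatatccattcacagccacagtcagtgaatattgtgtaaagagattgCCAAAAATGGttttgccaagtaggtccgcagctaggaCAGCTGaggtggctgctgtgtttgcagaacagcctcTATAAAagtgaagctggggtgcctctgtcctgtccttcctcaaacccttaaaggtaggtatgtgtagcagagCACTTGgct
Myh1: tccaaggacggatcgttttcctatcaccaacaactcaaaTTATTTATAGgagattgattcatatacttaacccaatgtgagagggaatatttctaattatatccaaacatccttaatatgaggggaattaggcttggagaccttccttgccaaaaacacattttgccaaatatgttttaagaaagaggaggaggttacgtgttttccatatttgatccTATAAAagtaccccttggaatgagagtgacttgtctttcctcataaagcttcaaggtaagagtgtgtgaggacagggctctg
Myh4 and Myh1 lie in the same cluster on chromosome 11, and both windows hold a MEF2 match that overlaps a TATAAA match. Among 27025 promoters of the same length, 72.1% held an E-box, 14.2% a TATAAA, 3.26% a MEF2 match and 1.57% a CArG box. Of the 12 most increased genes 9 had a window, of which 6 held an E-box, 2 a TATAAA, 0 a MEF2 match and 1 a CArG box. Of the 12 most decreased genes 7 had a window, of which 5 held an E-box, 3 a TATAAA, 2 a MEF2 match and 1 a CArG box. These matches describe letters and not bound sites.

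Contractile genes were divided between the tissues by isoform. Of 13 tested genes of the heart sarcomere list, 9 were higher in left ventricle, 1 was lower and 3 were not called. Their median log2 difference was 2.95, and 3.62 without quadriceps 3. Among all genes 31.1% were higher and 24.6% lower, with a median of 0.07. Of 16 tested limb sarcomere genes, 0 were higher and 15 lower (median -7.19). The fast myosin heavy chain Myh4 of type IIb fibres had signals of 31.5, 12.1, 7.4 and 2.2 in left ventricle, against 19144, 20366 and 20024 in quadriceps. Left ventricle signals of this gene were all far below the median signal of the arrays (68.8), so its log2 difference of -11.0 ± 0.61, adjusted p = 1.04e-06 depends on the floor, and the fold is better stated as at least 288-fold lower when signals under 68.8 are set to it. Myh1, the heavy chain of type IIx fibres, had 17.8, 11.8, 0.80 and 3.3 in left ventricle, against 11372, 11723 and 10723 in quadriceps (at least 164-fold lower). The fast troponin T gene Tnnt3 had 13, 28.8, 33 and 1.4 in left ventricle, against 17711, 17082 and 19010 in quadriceps (at least 260.4-fold lower). No left ventricle array came near any quadriceps array for these 3 genes. A second, dimmer probe set of Myh4 ran the opposite way at 0.41, with mean signals of 105 in left ventricle and 78.9 in quadriceps. Left ventricle signals of the fast regulatory light chain Mylpf were all under the floor of 3.1, so only a bound is given, at least 26.2-fold lower (adjusted p = 2.23e-08). By the same bound the fast actin-binding protein Actn3 was at least 210.2-fold lower (adjusted p = 2.23e-08), the fast troponin C gene Tnnc2 at least 147-fold (adjusted p = 8.49e-08) and the fast troponin I gene Tnni2 at least 15.2-fold (adjusted p = 7.63e-08). The calcineurin-binding Z-disc protein Myoz1 was at least 96.5-fold lower and the fast light chain Myl1 at least 236-fold lower. Slow limb isoforms were lower too, though less so, with Tnni1 at -2.87 ± 0.63 (0.31 and not called with the Gapdh covariate), Tnnt1 at -2.0 ± 0.20 and the tropomyosins Tpm2 and Tpm3 at -4.8 ± 0.31 and -1.41 ± 0.29. Myom2, an M-band protein of both muscles, was not called (-0.46 ± 0.24, adjusted p = 0.125).

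Among heart isoforms, the alpha myosin heavy chain Myh6 had signals of 15076, 15735, 15383 and 24276 in left ventricle, against 82.3, 4623 and 225 in quadriceps. Every left ventricle array was above every quadriceps array, and quadriceps 3 was the highest of its group. The log2 difference was 5.29 ± 1.07, adjusted p = 0.00238, and 6.99 without quadriceps 3. The cardiac troponin I gene Tnni3 had 13442, 15617, 14891 and 15516 in left ventricle, against 122, 4243 and 273 in quadriceps (4.83 ± 0.95, adjusted p = 0.00194). Its difference was 6.35 without quadriceps 3. Cardiac troponin T, encoded by Tnnt2, had 7704, 8121, 7974 and 5650.4 in left ventricle, against 109, 1182 and 147 in quadriceps (4.77 ± 0.67, adjusted p = 0.000256), and cardiac myosin-binding protein C, encoded by Mybpc3, had 4411, 4457, 4126 and 3628 in left ventricle, against 91.7, 963 and 118 in quadriceps (4.24 ± 0.66, adjusted p = 0.000479). Without quadriceps 3 they were at 5.85 and 5.31. The slow and cardiac troponin C gene Tnnc1 (2.91 ± 0.52), the ventricular light chains Myl2 (2.95 ± 0.43) and Myl3 (3.79 ± 0.56) and the beta myosin heavy chain Myh7 (2.29 ± 0.43) differed less, and each is also used by slow limb fibres. Myl7, the atrial regulatory light chain, ranged widely within the left ventricle, with 5569, 598, 1129 and 2181 in left ventricle, against 8.3, 228 and 27.8 in quadriceps. Its highest left ventricle signal was on array 2 and the lowest on array 3.

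Some contractile genes did not separate the tissues. Actc1, cardiac actin, had 11634, 12086, 11568 and 16074 in left ventricle, against 10490, 12052 and 9898 in quadriceps, which overlapped (0.24 ± 0.15, adjusted p = 0.199). A second Actc1 probe set gave a log2 difference of 1.0. Its limb partner Acta1 had 1713, 1802, 2159.8 and 1145 in left ventricle, against 18093, 19917 and 19749 in quadriceps (-3.53 ± 0.19, adjusted p = 9.32e-07). The coding sequences of these actins are nearly identical, and whether the Actc1 probe set, shared between transcripts by its suffix, tells them apart was not tested. The sarcomeric crosslinker Actn2 (-0.13 ± 0.19, adjusted p = 0.584) and the atrial and fetal light chain Myl4 (-0.56 ± 0.62, adjusted p = 0.473) were not called. Ldb3, a Z-disc protein of both muscles, was lower in left ventricle (-1.67 ± 0.13, adjusted p = 7.69e-06). Of 19 isoform pairs with both members tested, 12 had the heart member higher and the limb member lower. With the Gapdh ratio as a covariate 0 of the 13 heart sarcomere genes were called higher, and 13 of the 16 limb genes were still called lower. With all 10 SJL/J arrays, 3 of them mixed, these counts were 1 and 14.

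**Figure D2:**
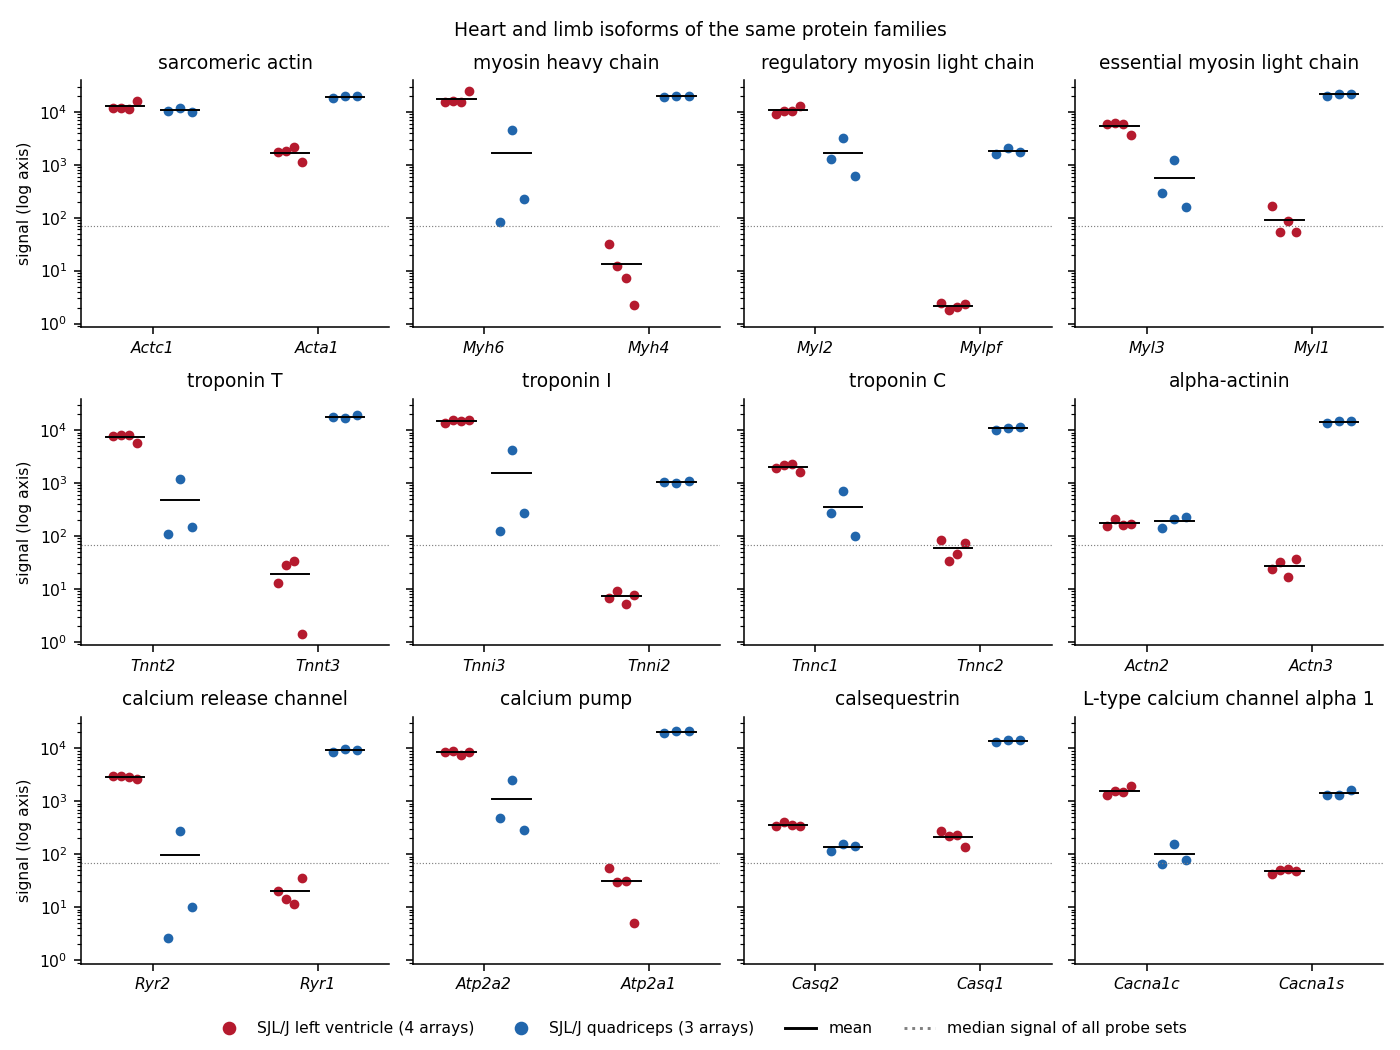
Signal per array (log axis) of the heart and the limb member of 12 protein families; red points are SJL/J left ventricle, blue points SJL/J quadriceps, black lines group means and the dotted line the median signal of 68.8. The limb members are separated by wide gaps in most families, quadriceps 3 is the highest quadriceps point of Myh6, Tnni3, Tnnt2 and Ryr2, and Actc1 and Actn2 overlap.

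Calcium handling followed the same division. Limb fibres release calcium through Ryr1 and take it up by the pump Atp2a1, whereas the heart uses Ryr2 and Atp2a2. Ryr2 had signals of 3044, 3022, 2836 and 2635 in left ventricle, against 2.6, 272 and 10.1 in quadriceps. The gap was widest against quadriceps 2 and 4, and the log2 difference of 7.14 ± 1.18, adjusted p = 0.000689 became 9.01 without quadriceps 3. Ryr1 had 20.0, 14.3, 11.6 and 35 in left ventricle, against 8702, 9540.4 and 9501 in quadriceps (at least 134-fold lower). The limb pump Atp2a1 had 55.3, 30.2, 31.7 and 5.1 in left ventricle, against 19291, 21490 and 21298 in quadriceps (at least 300.4-fold lower), and the heart pump Atp2a2 had 8697, 8984, 7513 and 8723 in left ventricle, against 485, 2479 and 287 in quadriceps (3.59 ± 0.58, adjusted p = 0.000589). In each of these genes the tissues did not overlap. The L-type calcium channel that triggers release also switched subunits, with Cacna1c at 4.05 ± 0.27 and Cacna1s at -4.89 ± 0.14. The calcium-storing calsequestrins differed unequally, with the heart form Casq2 at 1.41 ± 0.14 and the limb form Casq1 at -6.05 ± 0.20. The sodium-calcium exchanger Slc8a1, which removes calcium from heart cells after each beat, was at 4.02 ± 0.17. Parvalbumin, encoded by Pvalb, is a calcium buffer of fast fibres and was lower in left ventricle (-5.76 ± 0.21, adjusted p = 7.66e-08). Of 7 tested genes of heart calcium handling, 6 were higher and 1 lower (median 3.59, and 4.22 without quadriceps 3). The lower one was Hrc, a calcium-binding protein of the reticulum (-1.06 ± 0.14, adjusted p = 0.000193). Of 7 limb calcium genes, 0 were higher and 6 lower (median -5.76), and Fkbp1a, which stabilises the release channels, was not called (0.17 ± 0.11, adjusted p = 0.234).

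Several of the largest increases were in genes of cell junctions. Dsp encodes desmoplakin, which anchors desmosomes to desmin filaments, and had 5136, 4382, 4701 and 6622 in left ventricle, against 30.2, 705 and 56.3 in quadriceps (5.6 ± 0.86, adjusted p = 0.000429). Dsc2, a desmosomal cadherin, had 730, 598, 606 and 727 in left ventricle, against 1.2, 22 and 2.2 in quadriceps (6.8 ± 0.60, adjusted p = 1.41e-05). Cdh2, the N-cadherin of the intercalated disc, had 2778, 1937, 1881 and 1668 in left ventricle, against 26.2, 105 and 38.2 in quadriceps (5.43 ± 0.40, adjusted p = 4.60e-06). The disc protein Myzap had 2103, 1946, 1868 and 2257 in left ventricle, against 3.0, 144 and 3.5 in quadriceps (7.46 ± 1.11, adjusted p = 0.000367), a difference that rests on quadriceps signals near the floor (at least 23.1-fold higher with the bound at 68.8). Perp, a membrane protein of desmosomes, had 1623, 1622, 1673 and 1628 in left ventricle, against 4.6, 129 and 6.2 in quadriceps (6.73 ± 0.94, adjusted p = 0.000246), and the FERM-domain protein Frmd5 was at 5.18 ± 0.77, adjusted p = 0.000359. In all 6 genes the quadriceps arrays lay below every left ventricle array, and quadriceps 3 was again the highest of them. Without it the 6 differences were 6.96, 7.74, 6.0, 9.27, 8.26 and 6.16 in that order. The gap junction protein Gja1, which carries current between heart cells, had 7736, 8576, 7749 and 10454 in left ventricle, against 572, 1249.8 and 355 in quadriceps (3.76 ± 0.34, adjusted p = 1.77e-05). Gja5, a gap junction protein of atria and conduction tissue, was not called (0.73 ± 0.38, adjusted p = 0.131).

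Genes of cardiac ion channels, receptor signalling and natriuretic hormones were higher in left ventricle or not called. Of 11 cardiac ion channel and gap junction genes, 7 were higher and 0 lower (median 0.94), and with the Gapdh covariate 3 were higher and 0 lower. Kcnd2, which carries the early repolarising current of rodent ventricle, had 271, 260, 252 and 135 in left ventricle, against 1.0, 20.8 and 2.2 in quadriceps (5.24 ± 0.64, adjusted p = 0.00011). The potassium channels Kcna5 (3.5 ± 0.51, adjusted p = 0.000331), Kcnk3 (2.61 ± 0.74, adjusted p = 0.0139) and Kcnj8 (2.38 ± 0.19, adjusted p = 8.67e-06) were higher as well. Of 9 genes of receptor signalling, 7 were higher and 0 lower (median 0.96), among them the receptor kinase Grk5 (2.22 ± 0.20), the G protein regulator Rgs2 (1.57 ± 0.13) and the regulatory subunit Prkar1a of protein kinase A (1.21 ± 0.11). Of the 9, 3 were called higher and 0 lower with the Gapdh covariate. Nppb, the B-type natriuretic peptide released by stretched heart muscle, had 4079, 3960, 6869.8 and 4273 in left ventricle, against 39, 175 and 35.8 in quadriceps. Left ventricle 4 was the highest, and no quadriceps array reached any left ventricle array (6.22 ± 0.49, adjusted p = 6.92e-06). The A-type peptide gene Nppa had 2825, 712, 798 and 1280 in left ventricle, against 100.3, 290 and 72.2 in quadriceps (3.22 ± 0.54, adjusted p = 0.000777). Its highest signal was on left ventricle 2, as for Myl7.

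Most genes of limb muscle excitation were lower in left ventricle. Of 11 genes of limb muscle excitability and the endplate, 0 were higher in left ventricle and 8 lower (median -2.78), whereas with the Gapdh covariate 1 was higher and 5 lower (median -1.05). Chrna1, the acetylcholine receptor subunit that binds the transmitter, had 10.8, 4.9, 9.6 and 10.7 in left ventricle, against 592, 571 and 844 in quadriceps (-6.26 ± 0.34, adjusted p = 9.76e-07). The chloride channel Clcn1, which keeps resting fibres from firing, had 28.1, 51.7, 41.5 and 31.4 in left ventricle, against 781, 989.6 and 609 in quadriceps (-4.39 ± 0.25, adjusted p = 1.10e-06). Acetylcholinesterase, encoded by Ache, was at -3.74 ± 0.41, adjusted p = 5.18e-05, the calcium channel subunit Cacng1 at -5.62 ± 0.40, adjusted p = 3.75e-06 and the receptor subunit Chrnb1 at -2.78 ± 0.27, adjusted p = 2.67e-05. Signals of these genes did not overlap between the tissues, and Rapsn, which clusters the receptor, differed less (-0.97 ± 0.14, adjusted p = 0.000278).

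Developmental regulators differed by tissue. Nkx2-5, a homeobox factor of the heart, had 253, 310.1, 285 and 356 in left ventricle, against 10.7, 19.3 and 11.9 in quadriceps (4.47 ± 0.25, adjusted p = 1.10e-06). Hopx, a small homeodomain protein acting with it, had 3309, 3508, 3447 and 2659.8 in left ventricle, against 100.5, 414 and 121 in quadriceps (4.23 ± 0.41, adjusted p = 2.40e-05). Gata6, a zinc-finger factor of heart development, had 135, 111, 109.6 and 87.3 in left ventricle, against 17.1, 22 and 6.5 in quadriceps (3.02 ± 0.43, adjusted p = 0.000278). Gata4 was not called (0.60 ± 0.25, adjusted p = 0.062), nor was Hand1 (0.04 ± 0.49, adjusted p = 0.952). Of 6 tested heart factors 3 were higher and 1 lower. The lower one was Mef2c (-2.98 ± 0.28, adjusted p = 2.19e-05), a factor used in both muscles. On the limb side, Tbx15, a T-box factor of limb and trunk development, had 4.0, 2.9, 2.5 and 5.2 in left ventricle, against 576, 764 and 774 in quadriceps (at least 10.2-fold lower). Myf6, the myogenic factor of mature fibres, had 32.7, 65.2, 28.5 and 14.4 in left ventricle, against 628, 670.2 and 810.3 in quadriceps (-4.51 ± 0.41, adjusted p = 1.78e-05), and myostatin, the growth inhibitor encoded by Mstn, had 3.4, 11.5, 22.8 and 17.3 in left ventricle, against 243, 237 and 304 in quadriceps (-4.54 ± 0.59, adjusted p = 0.000152). Left ventricle signals of all 3 genes lay below 68.8, as did the quadriceps signals of Nkx2-5 and Gata6. Such genes entered the test only through the tissue where they were higher, so the filter partly fixed their direction. Of 10 tested myogenic genes 7 were lower and 1 higher (median -1.68), and the higher one was Eya1 (0.39 ± 0.14, adjusted p = 0.0356), which was at -0.27 and not called with the mean of its probe sets. Hox genes mark position along the body, and of 30 with a probe set 7 were tested and 23 were below the filter. Of the 7 tested, Hoxc6 (-2.73 ± 0.53, adjusted p = 0.00176), Hoxc9 (-3.34 ± 0.35, adjusted p = 3.81e-05) and Hoxd8 (-1.85 ± 0.19, adjusted p = 3.46e-05) were lower and 0 were higher.

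Most genes of glycolysis were lower in left ventricle, and some isozymes ran in opposite directions. Of 26 tested genes of glycolysis and glycogen, 4 were higher and 17 lower (15.4% and 65.4%, median -1.81). Among all genes 31.1% were higher and 24.6% lower. Muscle glycogen phosphorylase, encoded by Pygm, had 2211, 2089, 1847 and 1121 in left ventricle, against 12348, 11944 and 13631 in quadriceps (-2.84 ± 0.21, adjusted p = 5.46e-06), whereas the brain form Pygb had 1311, 1335, 1145 and 1178 in left ventricle, against 49.5, 135 and 39.8 in quadriceps (4.27 ± 0.35, adjusted p = 8.66e-06). Lactate dehydrogenase behaved alike, with Ldha at 4149.8, 4084, 4435 and 2948 in left ventricle, against 13836, 15576 and 14841 in quadriceps (-1.93 ± 0.15, adjusted p = 6.62e-06) and Ldhb at 1167, 1230.1, 905 and 862 in left ventricle, against 148, 251 and 198 in quadriceps (2.4 ± 0.20, adjusted p = 8.68e-06). In these 4 genes no array of one tissue overlapped the other. Glycerol-3-phosphate dehydrogenase, encoded by Gpd1, had the widest gap, with 62.3, 37.7, 37.4 and 95.5 in left ventricle, against 2721, 1753 and 1791 in quadriceps (-5.25 ± 0.32, adjusted p = 1.61e-06). Lower signals were also found for the phosphorylase kinase subunit Phkg1 (-3.28 ± 0.14), pyruvate kinase Pkm (-2.99 ± 0.18), the muscle mutase Pgam2 (-2.91 ± 0.18) and the muscle phosphofructokinase Pfkm (-2.71 ± 0.24). The other mutase, Pgam1, was higher (0.70 ± 0.19, adjusted p = 0.0106), and the liver phosphofructokinase Pfkl was not called (0.06 ± 0.18, adjusted p = 0.788). Of the hexokinases, Hk1 was slightly lower with overlapping arrays (-0.38 ± 0.14, adjusted p = 0.0443, not called at 0.08 with the Gapdh covariate) and Hk2 was not called (-0.04 ± 0.10, adjusted p = 0.778). With the Gapdh covariate 12 genes of this list were called lower and 2 higher.

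Most genes of fatty acid use were higher in left ventricle. Of 27 tested genes, 18 were higher and 4 lower (66.7% and 14.8%, against 31.1% and 24.6% among all genes, median 0.80). With the Gapdh covariate 12 were higher and 1 lower. Lipoprotein lipase, encoded by Lpl, which frees fatty acids from blood lipids, had 9572, 9952, 9445 and 14014 in left ventricle, against 2565, 3256 and 1899.9 in quadriceps (2.08 ± 0.20, adjusted p = 2.53e-05). Cd36, which brings them into the cell, had 901, 698, 675 and 1254 in left ventricle, against 172, 214 and 171 in quadriceps (2.21 ± 0.21, adjusted p = 2.26e-05). The enzymes of mitochondrial oxidation Ech1 (2.03 ± 0.13, adjusted p = 2.34e-06), Hadh (1.35 ± 0.14, adjusted p = 4.06e-05) and Acadl (1.33 ± 0.15, adjusted p = 6.60e-05) and the electron carriers Etfa (1.76 ± 0.12, adjusted p = 3.46e-06) and Etfdh (1.63 ± 0.19, adjusted p = 8.39e-05) were higher without overlap. The liver-type carnitine transferase Cpt1a was at 1.92 ± 0.22. Exceptions were Slc27a1, a fatty acid transporter, with 35.2, 23, 22.2 and 22.8 in left ventricle, against 79.7, 111 and 146 in quadriceps (-2.1 ± 0.32, adjusted p = 0.000434), and the uncoupling protein Ucp3 (-1.56 ± 0.20, adjusted p = 0.000136), both lower. The heart fatty acid binding protein Fabp3 was not called (-0.23 ± 0.24, adjusted p = 0.435). Both tested genes of ketone use were higher, the transferase Oxct1 (1.18 ± 0.13, adjusted p = 4.64e-05) and the carrier Slc16a1 (1.83 ± 0.16, adjusted p = 1.24e-05). Of 17 citric acid cycle genes 7 were higher and 1 lower (41.2% and 5.88%, median 0.22), and citrate synthase, encoded by Cs, was at 0.39 ± 0.13, adjusted p = 0.0253. Myoglobin, the oxygen store encoded by Mb, had 8279, 7968, 7419.8 and 7066 in left ventricle, against 2856, 4618 and 3123 in quadriceps (1.15 ± 0.16, adjusted p = 0.000281), and with the mean of its probe sets the difference was -0.16 and not called. Carbonic anhydrase 3, encoded by Car3, had 88.9, 28, 84.7 and 57.9 in left ventricle, against 4366, 3512 and 3539 in quadriceps (-6.0 ± 0.35, adjusted p = 1.19e-06).

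The respiratory chain did not move as 1 group. Of 38 tested genes of complexes I to III, 6 were higher and 14 lower (median -0.19). Of 25 genes of cytochrome c oxidase and ATP synthase, 5 were higher and 10 lower (median -0.14). With the Gapdh covariate these counts were 3 higher and 4 lower, and 1 higher and 5 lower. In C57BL/6, 12 of 38 were higher and 2 lower in the first list, and 8 of 25 higher and 1 lower in the second. Among all genes, 31.1% were higher and 24.6% lower in SJL/J, and 30.8% and 20.5% in C57BL/6. The SJL/J shares were 15.8% higher and 36.8% lower in the first list, and 20% and 40% in the second. In C57BL/6 the higher share of both lists was near that of all genes. The largest decreases were in genes of small subunits. Cox8b, a heart and muscle subunit of cytochrome c oxidase, had 326, 362, 339 and 353 in SJL/J left ventricle and 3344, 3766 and 3821 in SJL/J quadriceps, beside 3803, 3922, 3833, 4202 and 3483 in C57BL/6 left ventricle and 2426, 3179, 2907, 1392 and 3082 in C57BL/6 quadriceps. Its log2 tissue difference was -3.4 ± 0.10 in SJL/J and 0.62 ± 0.21 in C57BL/6, and the interaction was -4.02 ± 0.27, adjusted p = 3.81e-08. Atp5e, the epsilon subunit of ATP synthase, had 200.5, 235, 188 and 104 in SJL/J left ventricle and 1887, 2992 and 2484 in SJL/J quadriceps, beside 1888, 1875, 2377, 2029 and 2374 in C57BL/6 left ventricle and 1648, 2108, 2186, 1486 and 2231 in C57BL/6 quadriceps. Its differences were -3.79 ± 0.27 in SJL/J and 0.14 ± 0.15 in C57BL/6 (interaction -3.93 ± 0.30, adjusted p = 2.14e-07). In both genes the SJL/J left ventricle arrays lay below every array of the other three groups. The ATP synthase genes Atp5l (-2.59 ± 0.15 in SJL/J and 0.49 ± 0.12 in C57BL/6, interaction -3.08 ± 0.19, adjusted p = 1.37e-08) and Atp5k (-2.32 ± 0.47 in SJL/J and 1.18 ± 0.17 in C57BL/6, interaction -3.49 ± 0.48, adjusted p = 7.90e-05) did likewise. So did Uqcr11 and Uqcrh of complex III (-2.22 ± 0.11 and -1.21 ± 0.16 in SJL/J, 1.49 ± 0.30 and 0.55 ± 0.13 in C57BL/6) and Cox7a1, the muscle form of another oxidase subunit (-1.26 ± 0.15 in SJL/J and 1.15 ± 0.15 in C57BL/6), all with called interactions. On the SJL/J arrays set aside (left ventricle 1, quadriceps 1, quadriceps 5), Atp5e read 214, 111 and 1288 and Cox8b read 308, 252 and 2850, where the Gapdh ratios were 0.470, 0.268 and 0.489. Gapdh ratios were 0.101 to 0.335 on the left ventricle arrays of SJL/J compared here, against 0.697 to 0.866 on those of C57BL/6, with no overlap. With the Gapdh ratio as a covariate the interactions of Cox8b and Atp5e were -3.69 and -3.64, both still called. Where the ratios do not overlap, this covariate cannot tell RNA integrity from strain. In the opposite direction, the core protein Uqcrc2 had 9379, 11289, 9434 and 11860 in left ventricle, against 4460.2, 4627 and 4351 in quadriceps (1.22 ± 0.12, adjusted p = 2.98e-05) and the non-muscle subunit Cox6a1 had 3925, 4469, 4630.1 and 5542 in left ventricle, against 2436, 1716 and 1178 in quadriceps (1.44 ± 0.22, adjusted p = 0.000452), whereas its muscle partner Cox6a2 was not called (0.10 ± 0.12, adjusted p = 0.513).

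**Figure D3:**
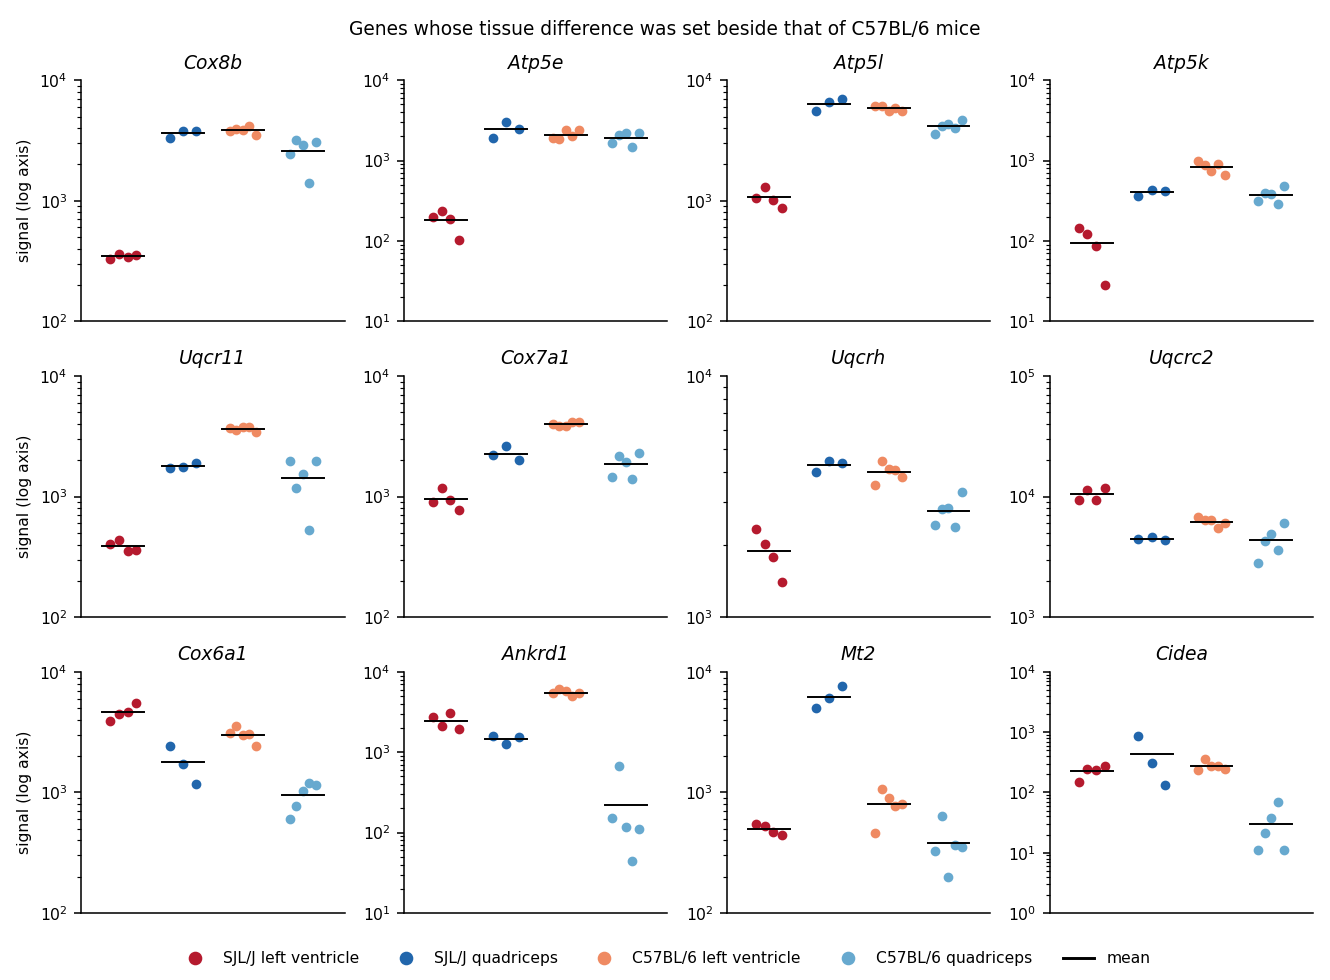
Signal per array (log axis) of 12 genes in SJL/J left ventricle (4 arrays), SJL/J quadriceps (3 arrays), C57BL/6 left ventricle and C57BL/6 quadriceps (5 arrays each); black lines are group means. Cox8b, Atp5e, Atp5l, Atp5k, Uqcr11, Cox7a1 and Uqcrh are lowest in SJL/J left ventricle, Uqcrc2 and Cox6a1 have higher means in left ventricle than in quadriceps in both strains, and Ankrd1, Mt2 and Cidea have SJL/J quadriceps above C57BL/6 quadriceps.

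Several cytosolic enzymes of energy buffering were lower in left ventricle. Muscle creatine kinase, encoded by Ckm, had 823, 989, 731 and 1033 in left ventricle, against 8054, 8019.8 and 8045 in quadriceps (-3.18 ± 0.13, adjusted p = 1.74e-07), and its mitochondrial partner Ckmt2 was not called (0.16 ± 0.13, adjusted p = 0.327). A second, dimmer probe set of Ckm ran the opposite way, with a log2 difference of 0.50. Adenylate kinase Ak1 (-1.94 ± 0.11, adjusted p = 9.96e-07) and the purine cycle enzyme Adssl1 (-2.3 ± 0.10, adjusted p = 2.03e-07) were lower. In this list of 13 genes 3 were higher and 6 lower (23.1% and 46.2%, against 31.1% and 24.6% among all genes).

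Most endothelial markers and many matrix genes were higher in left ventricle. Of 19 tested endothelial markers, 16 were higher and 0 lower (median 1.6), where 31.1% of all genes were higher and 24.6% lower. Endoglin, a receptor subunit of endothelial cells encoded by Eng, had 2722, 2182, 2909 and 3978 in left ventricle, against 216, 249 and 284 in quadriceps (3.54 ± 0.19, adjusted p = 8.68e-07). The junction protein Cdh5 had 1256, 1659, 1068 and 1093 in left ventricle, against 345, 389 and 330 in quadriceps (1.82 ± 0.16, adjusted p = 1.30e-05), and the growth factor receptor Kdr had 299, 249, 314 and 440.3 in left ventricle, against 74.6, 62.6 and 77.6 in quadriceps (2.16 ± 0.20, adjusted p = 1.80e-05). The left ventricle arrays lay above all quadriceps arrays in each. Emcn (2.31 ± 0.14), Tek (2.0 ± 0.19), Tie1 (1.72 ± 0.17) and the transcription factor Sox18 (2.04 ± 0.17) were higher too, and Pecam1 was not called (0.25 ± 0.21, adjusted p = 0.348). Of the 19, 9 were called higher and 0 lower with the Gapdh covariate. The summed signal of the endothelial list was 11270 to 14359 in left ventricle and 4236 to 4754 in quadriceps. Of 33 matrix genes 17 were higher and 4 lower (51.5% and 12.1%, median 0.44), and with the Gapdh covariate 10 were higher and 2 lower. The proteoglycans Lum (2.35 ± 0.12, adjusted p = 7.60e-07) and Dcn (1.75 ± 0.18, adjusted p = 4.06e-05) and the basement membrane collagens Col4a1 (1.41 ± 0.10, adjusted p = 3.80e-06), Col4a2 (1.58 ± 0.11, adjusted p = 3.08e-06) and Col15a1 (1.83 ± 0.17, adjusted p = 1.66e-05) were higher. The 4 lower ones were Fmod, a proteoglycan of tendon (-5.77 ± 0.48, adjusted p = 9.99e-06), the crosslinking enzyme Lox (-4.03 ± 0.62, adjusted p = 0.000456), Timp1, which inhibits matrix proteases (-1.54 ± 0.21, adjusted p = 0.000205), and the fibrillar collagen Col1a1 (-0.72 ± 0.24, adjusted p = 0.0294). Arrays overlapped for Col1a1, which was at 0.35 and not called with the Gapdh covariate. Red cell genes were higher as well, with haemoglobin Hba-a1 at 2.04 ± 0.29, adjusted p = 0.000293 and Hbb-b2 at 2.02 ± 0.31, adjusted p = 0.000411, in a list of 5 with 3 higher and 0 lower. The share of blood in the tissues was not tested, and the globins have near-identical copies.

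Genes of inflammation gave a mixed picture in SJL/J. Of 18 tested macrophage markers 3 were higher and 4 lower in left ventricle (median -0.05), where C57BL/6 had 11 higher and 1 lower of 14 (median 1.36). Ctss, a cathepsin of antigen-presenting cells, had 376, 438, 404 and 753 in SJL/J left ventricle and 869.6, 535 and 879 in SJL/J quadriceps, beside 340, 295, 304, 189 and 269.5 in C57BL/6 left ventricle and 137, 108, 64.6, 52.5 and 139.8 in C57BL/6 quadriceps. Its tissue difference was -0.65 ± 0.26 in SJL/J and 1.56 ± 0.28 in C57BL/6 (interaction -2.21 ± 0.43, adjusted p = 0.00145). C1qa, a complement component made by macrophages, was at -0.16 ± 0.15 in SJL/J and 2.45 ± 0.31 in C57BL/6 (interaction -2.61 ± 0.41, adjusted p = 0.000273). Its partner C1qb, by contrast, was lower in left ventricle in both strains, by -2.97 ± 0.49 in SJL/J and -2.55 ± 0.29 in C57BL/6, with no called interaction (-0.42 ± 0.58, adjusted p = 0.645). A second, dimmer C1qb probe set gave a log2 difference of -1.07 in SJL/J. The third chain gene, C1qc, went with C1qa (-0.52 in SJL/J, 1.44 in C57BL/6, interaction -1.96, adjusted p = 0.000234). The class II genes H2-Aa (-1.07 ± 0.29 in SJL/J, 1.85 ± 0.23 in C57BL/6, interaction -2.92 ± 0.39, adjusted p = 5.63e-05) and H2-Ab1 (-1.28 ± 0.33 in SJL/J, 2.16 ± 0.43 in C57BL/6, interaction -3.44 ± 0.62, adjusted p = 0.000796) had interactions of the same sign. The SJL/J tissues overlapped for H2-Aa, and in C57BL/6 both genes were higher in left ventricle. The strains carry different alleles of these genes, and how that touches the probes was not tested. Of 17 genes of antigen presentation 6 were higher and 2 lower in SJL/J left ventricle, and 14 higher and 0 lower of 16 in C57BL/6. Among all genes, 31.1% were higher and 24.6% lower in SJL/J, and 30.8% and 20.5% in C57BL/6. The antigen presentation list had 35.3% higher and 11.8% lower in SJL/J, so its higher share was near that of all genes. Its SJL/J counts were 1 and 1 with the Gapdh covariate. Of 20 interferon-stimulated genes 11 were higher and 0 lower (median 1.01), among them the guanylate-binding proteins Gbp3 (1.85 ± 0.20, adjusted p = 5.82e-05) and Gbp2 (1.5 ± 0.24, adjusted p = 0.000611) and the antiviral gene Ifit1 (2.19 ± 0.33, adjusted p = 0.000375). With the Gapdh covariate 4 were higher and 0 lower (median 0.37), and in C57BL/6 9 were higher and 0 lower of 13 (median 1.24).

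More adipocyte and regeneration genes were lower than higher in left ventricle. Of 14 adipocyte markers 1 was higher and 9 lower in left ventricle (7.14% and 64.3%, against 31.1% and 24.6% among all genes, median -1.39). With the Gapdh covariate 1 was higher and 3 lower. The fat hormone adiponectin, encoded by Adipoq, had 63.8, 44.6, 66.7 and 52.4 in left ventricle, against 2400.1, 1311 and 1856 in quadriceps (-5.0 ± 0.22, adjusted p = 2.49e-07). Resistin, another fat hormone encoded by Retn, had 12, 7.3, 10.5 and 8.8 in left ventricle, against 419, 309.7 and 482 in quadriceps (-5.39 ± 0.31, adjusted p = 1.10e-06), and the desaturase Scd1 had 468, 462, 376 and 331 in left ventricle, against 11427, 8619 and 3574 in quadriceps (-4.12 ± 0.34, adjusted p = 8.62e-06). All left ventricle arrays lay below all quadriceps arrays, and the higher gene was Lpl, which heart muscle also makes. The summed signal of the adipocyte list was 12800 to 17606 in left ventricle and 11417 to 25708 in quadriceps. Leptin, encoded by Lep, was not called (-0.14 ± 0.29, adjusted p = 0.713). Ucp1, the uncoupling protein of brown fat, varied within quadriceps, with 5.4, 29, 11.6 and 13.6 in left ventricle, against 1248, 317 and 115 in quadriceps (-4.83 ± 0.78, adjusted p = 0.000583). The regeneration list includes the endplate gene Chrna1 (-6.26) and the heart gene Tnnt2 (4.77), both described above. Of its 18 tested genes 3 were higher and 11 lower (16.7% and 61.1%, median -1.29). With the Gapdh covariate 1 was higher and 6 lower, and in C57BL/6 4 were higher and 6 lower of 17 (median -0.25). The perinatal myosin Myh8 had 10.3, 1.0, 1.4 and 3.7 in left ventricle, against 156, 112 and 152 in quadriceps (-4.99 ± 0.63, adjusted p = 0.000132), and the embryonic myosin Myh3 had 6.4, 1.1, 1.0 and 11.3 in left ventricle, against 94.2, 47.4 and 129 in quadriceps (-4.02 ± 0.74, adjusted p = 0.00133). Both were dim in quadriceps as well, at most a few times the median signal. Myog, the myogenic factor of newly formed fibres, was at -1.88 ± 0.37, adjusted p = 0.00202, Myod1 at -1.48 ± 0.18, adjusted p = 0.000103 and the growth factor gene Igf2 at -1.57 ± 0.10, adjusted p = 2.00e-06. Myh8, Myog and Myod1 also differed in C57BL/6 by -4.62 ± 0.46, -1.2 ± 0.24 and -1.15 ± 0.17.

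Lists of the muscle membrane and of stress responses had calls in both directions, to be read against 31.1% higher and 24.6% lower among all genes. Of 23 sarcolemma and costamere genes 5 were higher and 9 lower (median -0.10). The LIM protein Fhl2 had 4929, 5475, 5188 and 3849.5 in left ventricle, against 89.5, 828 and 104 in quadriceps (4.61 ± 0.64, adjusted p = 0.000243), whereas its relative Fhl1 had 2063, 2452, 2458 and 2419 in left ventricle, against 6319, 6660.2 and 7144 in quadriceps (-1.52 ± 0.11, adjusted p = 3.70e-06). Pdlim3, a Z-disc protein, had 103, 94.3, 110.4 and 83.4 in left ventricle, against 3343, 3421 and 3408 in quadriceps (-5.12 ± 0.12, adjusted p = 1.89e-08), and the muscle protease Capn3 was at -2.1 ± 0.15, adjusted p = 3.89e-06. Dystrophin, encoded by Dmd (0.05 ± 0.25, adjusted p = 0.886), and dystroglycan, encoded by Dag1 (0.23 ± 0.10, adjusted p = 0.0766), were not called. Of 11 cardiac stress genes 5 were higher and 4 lower (median -0.29), and in C57BL/6 8 were higher and 1 lower (median 2.89). Ankrd1, an ankyrin repeat protein induced by load, had 2719, 2155, 3086 and 1972 in SJL/J left ventricle and 1577, 1252 and 1538 in SJL/J quadriceps, beside 5445, 6063, 5777, 4957 and 5497 in C57BL/6 left ventricle and 152, 669, 119, 43.8 and 112 in C57BL/6 quadriceps. Its tissue difference was 0.75 ± 0.17 in SJL/J and 5.28 ± 0.52 in C57BL/6 (interaction -4.52 ± 0.69, adjusted p = 0.000206). The metallothionein Mt2, which binds zinc and responds to stress, had 550.1, 524, 466 and 444 in SJL/J left ventricle and 5054, 6105 and 7615 in SJL/J quadriceps, beside 458, 1065, 908, 775 and 806 in C57BL/6 left ventricle and 329.7, 641, 199, 367 and 354 in C57BL/6 quadriceps. The SJL/J quadriceps arrays lay above all others, and the difference was -3.64 ± 0.15 in SJL/J and 1.13 ± 0.29 in C57BL/6 (interaction -4.77 ± 0.39, adjusted p = 3.68e-07). Of 22 immediate early genes 7 were higher and 8 lower (31.8% and 36.4%, median -0.23), with Nr4a1 (-2.37 ± 0.16, adjusted p = 3.36e-06), Fos (-2.28 ± 0.30, adjusted p = 0.00017) and Gadd45b (-2.46 ± 0.29, adjusted p = 8.25e-05) lower and Rhob (2.03 ± 0.13, adjusted p = 1.61e-06) and Klf4 (1.45 ± 0.15, adjusted p = 3.50e-05) higher. Of 28 genes of the proteasome and ubiquitin ligases 2 were higher and 16 lower (median -0.45; 0 higher and 10 lower with the Gapdh covariate), among them Psmd8 (-1.74 ± 0.14, adjusted p = 9.28e-06), Psmb3 (-1.44 ± 0.12, adjusted p = 1.24e-05) and Psmb7 (-1.12 ± 0.12, adjusted p = 3.93e-05). Of 20 chaperones 5 were higher and 7 lower (25% and 35%), with Hspa5 of the endoplasmic reticulum higher (0.94 ± 0.12, adjusted p = 0.000121) and the small heat shock protein Hspb8 lower (-1.73 ± 0.25, adjusted p = 0.000293). Of 30 antioxidant genes 10 were higher and 8 lower (33.3% and 26.7%), near the shares of all genes, with the mitochondrial dismutase Sod2 at 0.97 ± 0.11, adjusted p = 5.12e-05 and the peroxiredoxin Prdx4 at 2.1 ± 0.13, adjusted p = 2.00e-06.

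Markers of other cells that the samples could hold formed short lists. Their counts, and those of the other lists here, are to be read against 31.1% higher and 24.6% lower among all genes. Of 9 smooth muscle and pericyte markers 5 were higher and 1 lower in left ventricle (median 0.46), and of 4 nerve and Schwann cell markers 3 were higher and 0 lower (median 0.46). Of 7 atrial markers 5 were higher and 0 lower (median 2.58), a list that holds Nppa and Myl7, and with the Gapdh covariate 0 were called. Lymphocyte markers had 1 higher and 1 lower of 7, and mesothelial markers 1 higher and 2 lower of 4. Complement genes had 5 higher and 2 lower of 12 (41.7% and 16.7%), solute transporters 4 higher and 7 lower of 14 (28.6% and 50%), and the wider list of oxygen carriers 6 higher and 1 lower of 9.

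**Figure D4:**
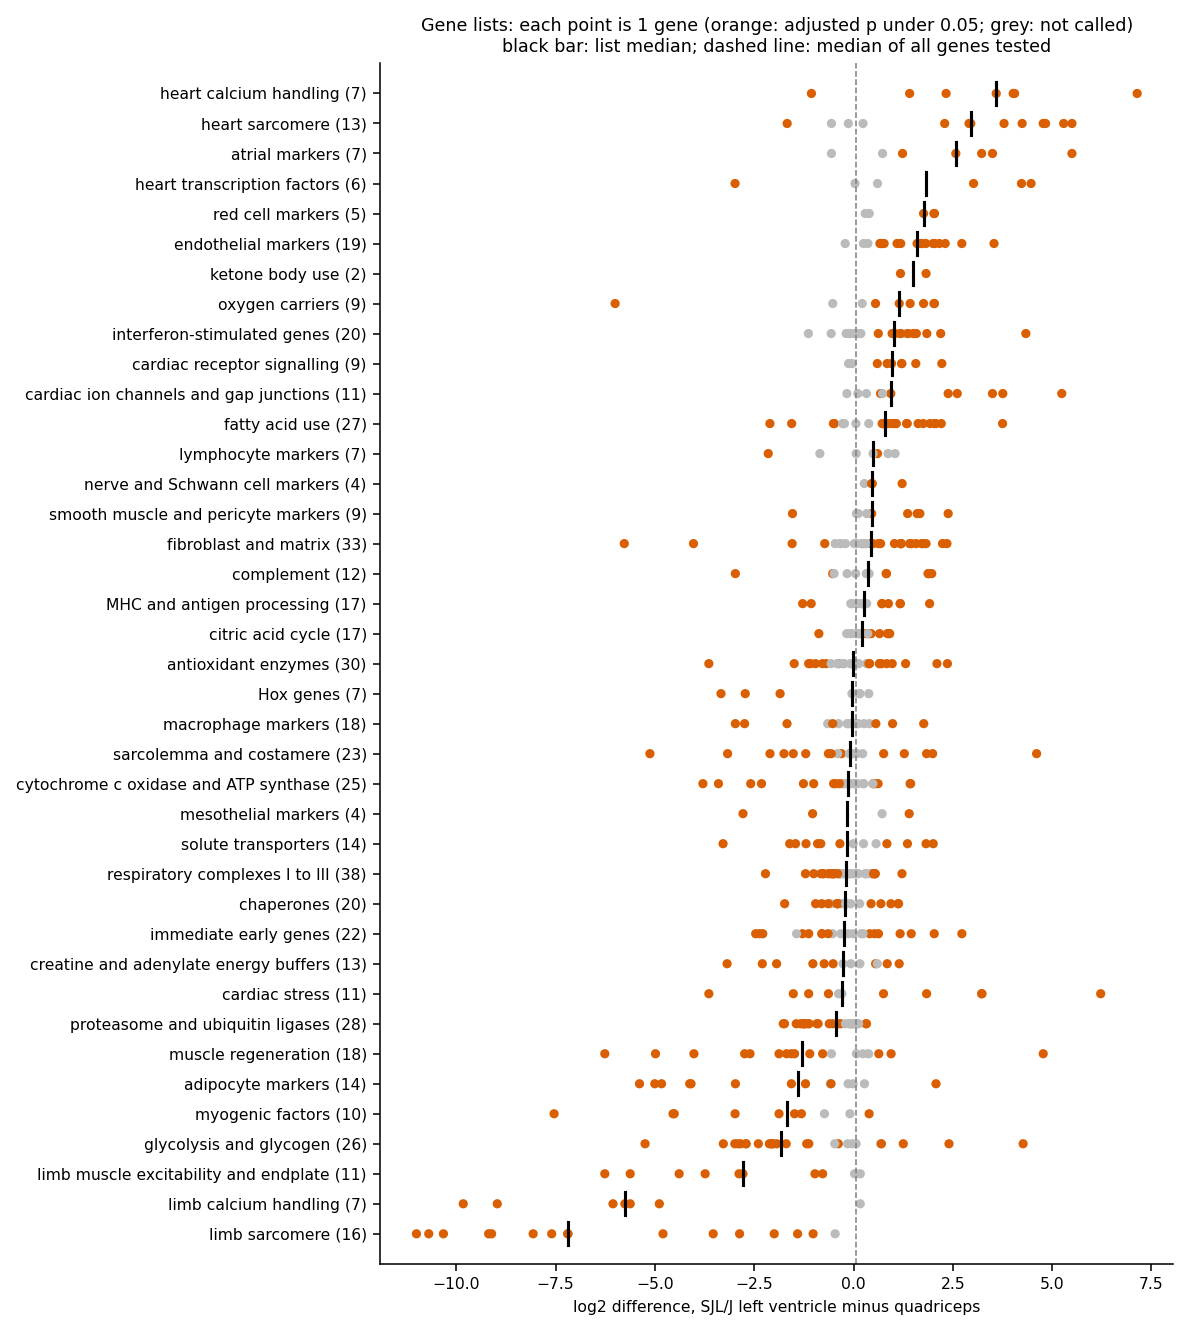
Log2 difference, left ventricle minus quadriceps, of every tested member of 39 gene lists (number of members in brackets); orange points are called at an adjusted p under 0.05, grey points are not, black bars are list medians and the dashed line is the median of all genes, 0.07. Heart calcium handling has the highest median (3.59) and limb sarcomere the lowest (-7.19), and the respiratory chain, sarcolemma and chaperone lists straddle the dashed line.

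The tissue difference of SJL/J was then set beside that of C57BL/6, whose 10 arrays are separate from the SJL/J arrays. In C57BL/6, 2694 of 5246 genes were called (51.4%), 1618 higher (30.8%) and 1076 lower (20.5%) in left ventricle. With median centring 43.6% of the C57BL/6 calls were higher, against 60.1% as deposited. The C57BL/6 left ventricle arrays were hybridised in runs 2 and 3. Quadriceps 1, 2, 3 and 5 were hybridised in run 1 on another chip lot, and quadriceps 4 in run 5. Tissue and run thus cannot be told apart in C57BL/6 either. C57BL/6 left ventricle 5 and quadriceps 2 also carried transcripts of the other tissue, with a limb sum of 21889 (left ventricle 5) and a heart sum of 7154 (quadriceps 2). Of 5044 genes tested in both strains, 1737 were called in both, and 1562 of those had the same direction and 175 the opposite one. The shared calls of the same direction were 55.3% of the SJL/J calls and 60.6% of the C57BL/6 calls. Across these genes, which are not independent replicates, the differences of the strains correlated with a Pearson coefficient of 0.771. All 24 genes with the largest differences in SJL/J were called in the same direction in C57BL/6, and 1 of them, Myl1, had a called interaction (SJL/J -8.06 ± 0.34, C57BL/6 -4.07 ± 0.61, interaction -3.99 ± 0.86, adjusted p = 0.00308). Myl1 read 1241, 458, 558.5, 505 and 5150 in C57BL/6 left ventricle, highest on the mixed array 5. Array 1, the next highest, had a limb sum of 3896.5, against 648 to 1396.5 on arrays 2 to 4. How far carried-over limb transcripts lowered the C57BL/6 difference was not tested.

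The interaction, the tissue difference of SJL/J minus that of C57BL/6, was called for 1241 of 5517 genes (22.5%), 531 higher (9.62%) and 710 lower (12.9%). Of the C57BL/6 quadriceps arrays, 1, 2, 3 and 5 came from another chip lot and run than all SJL/J arrays. The C57BL/6 left ventricle arrays came from run 2 (1 to 4) and run 3 (5), and the SJL/J left ventricle arrays compared from run 4. Strain and run thus cannot be told apart for most of the data behind these coefficients. The lowest coefficients were those of Ucp1 (-5.74 ± 0.96, adjusted p = 0.000419), Mt2 (-4.77), Rrad (-4.57 ± 0.34, adjusted p = 1.25e-07), Ankrd1 (-4.52), Cidea (-4.14 ± 0.74, adjusted p = 0.000728), Mt1 (-4.08 ± 0.43, adjusted p = 6.48e-06), Cox8b (-4.02) and Fkbp8 (-4.02 ± 0.39, adjusted p = 3.09e-06). Rrad, a small GTPase of muscle, had 969, 946, 1139 and 773 in SJL/J left ventricle and 948, 1217 and 1356 in SJL/J quadriceps, beside 2704, 2265, 2686, 1868 and 1552 in C57BL/6 left ventricle and 88.5, 205, 92.3, 94.8 and 108 in C57BL/6 quadriceps. Cidea, a lipid droplet protein, had 152, 245, 233 and 277 in SJL/J left ventricle and 872, 312 and 135 in SJL/J quadriceps, beside 240.3, 356, 269.9, 275 and 242 in C57BL/6 left ventricle and 10.9, 21.5, 37.5, 69.1 and 11.2 in C57BL/6 quadriceps. In both genes C57BL/6 quadriceps held the lowest signals. The highest coefficients were those of the growth factor receptor regulator Lrig1 (3.45 ± 0.75, adjusted p = 0.00347), the methyltransferase Inmt (3.4 ± 0.50, adjusted p = 0.000146), the interferon-induced gene Ifit2 (3.21 ± 0.60, adjusted p = 0.00108), the growth factor carrier Fgfbp1 (3.08 ± 0.70, adjusted p = 0.00444), the transcription factor Mycn (2.97 ± 0.66, adjusted p = 0.00374), Cd55 (2.93 ± 0.60, adjusted p = 0.00203), Ces1d (2.91 ± 0.31, adjusted p = 6.48e-06) and the major urinary protein gene Mup5 (2.89 ± 0.71, adjusted p = 0.00718). Lrig1, Inmt, Ifit2 and Mycn were below the median signal of 68.8 on every SJL/J quadriceps array, Fgfbp1 in all groups but C57BL/6 quadriceps, Fkbp8 in SJL/J left ventricle and Ucp1 in all groups but SJL/J quadriceps, so the sizes and order of these coefficients depend on dim signals. With signals under 68.8 set to it, the coefficient of Ucp1 was -2.38 and that of Fkbp8 -3.14, and Lrig1 (0.43), Inmt (0.58), Fgfbp1 (0.60) and Mup5 (0.97) were not called. The carboxylesterase Ces1d had 973, 803, 977 and 1228 in SJL/J left ventricle and 349, 267 and 190.5 in SJL/J quadriceps, beside 561, 456, 596, 404 and 471 in C57BL/6 left ventricle and 955, 1101, 1147, 1250.3 and 596 in C57BL/6 quadriceps. Cd55, which shields cells from complement, had 44, 53.1, 58.3 and 45.6 in SJL/J left ventricle and 41.6, 30.1 and 17.4 in SJL/J quadriceps, beside 33, 23.2, 38.8, 24.6 and 33.9 in C57BL/6 left ventricle and 145, 134, 137, 43.7 and 301 in C57BL/6 quadriceps, and it was below the median signal in all groups but C57BL/6 quadriceps. The counts depended on 1 array: without C57BL/6 quadriceps 4, the only array of its group hybridised in run 5, 1900 interactions were called. This array also had a limb sum of 253688, against 82473 to 126446 on the others of its group. Its median rank correlation with them was 0.897, against 0.952 to 0.955 for the others. Its Gapdh ratio was 0.487, against 0.781 to 1.06. Which of these traits plays a part was not tested. With median centring 53.4% of the called interactions were higher, against 42.8% as deposited.

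**Figure D5:**
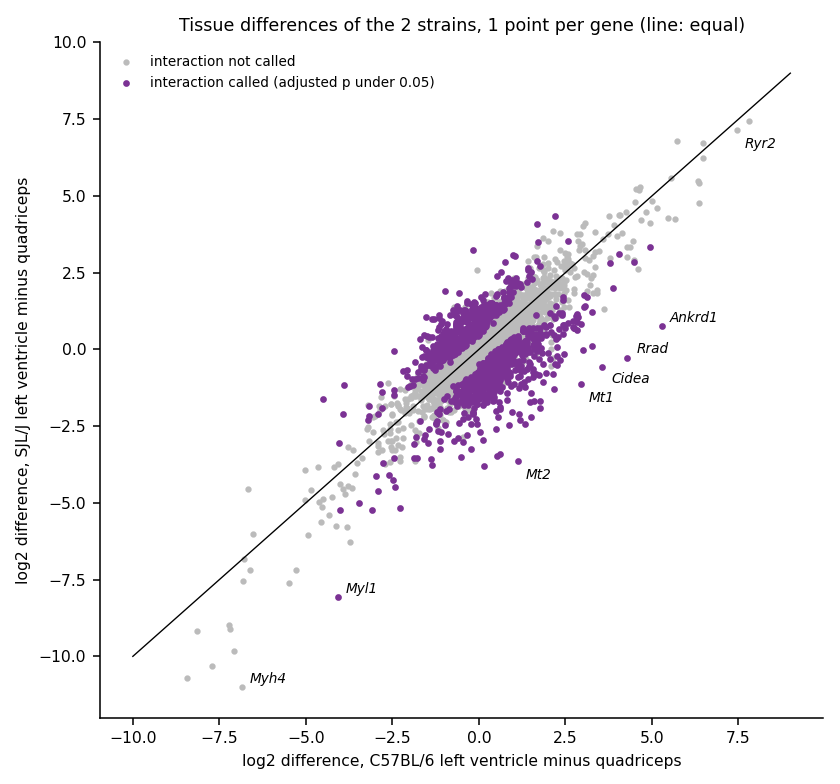
Log2 difference between left ventricle and quadriceps in SJL/J (vertical axis) against that in C57BL/6 (horizontal axis), 1 point per gene tested in both strains; purple points have a called interaction and the line marks equal differences. Points follow the line (Pearson 0.771), with Ankrd1, Rrad, Cidea, Mt1 and Mt2 below it.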

How the data were processed

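The authors deposited 1 intensity per probe set and array for 12488 probe sets of the Affymetrix MG_U74Av2 array, on a linear scale with trimmed means of 199.93 to 199.95 in all 20 arrays. Per the labels, TRIzol extraction, DNase treatment and RNeasy columns gave the RNA, of which 8 µg was labelled. The sources used here give neither the summarisation software nor detection calls, and the number of arrays limits the precision. Runs, 2 chip lots and 2 wash protocols were read per the file headers, a gap over 30 minutes starting a new run.

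Of the probe sets, 66 were controls, 10833 had 1 gene symbol (GEO's platform annotation, 10817 matched in a RefSeq table of GRCm38.p6), 396 several and 1193 none. Signals were raised to a floor of 3.1 (the 5th percentile), log2 was taken, the brightest probe set stood for each of 8251 genes, and genes with a group mean above the median signal of 68.8 were tested. limma 3.58.1 (R 4.3.3; lmFit, eBayes with trend) compared the 4 left ventricle and 3 quadriceps arrays; the interaction used these 7 and 10 C57BL/6 arrays, and the C57BL/6 comparison those 10 alone. A gene was called where the p-value, adjusted by Benjamini-Hochberg over all genes tested, was under 0.05, and values after ± are standard errors of log2 differences. Figures used matplotlib 3.10.9.

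Named genes were the 12 largest increases and decreases without overlap, the genes of isoform pairs, up to 8 members with the smallest p per list described, and the 8 largest interactions in each direction. The members and lists were chosen with earlier results of these data known. C1qc was named as the third C1q chain, after its values were seen. Of the other 188 genes named, 19 fell outside the rule and were chosen after their values were seen: C1qa, Col1a1, Dag1, Dmd, Fabp3, Fhl2, Lep, Lox, Myh3, Myom2, Pecam1, Pygb, Slc27a1, Timp1, Tnni1, Tnnt1, Tpm2, Tpm3 and Ucp3. Among these 188 genes, 29 have a probe set whose suffix marks it as shared by several transcripts, and actins, myosin heavy chains, globins, metallothioneins and class II genes have near-identical relatives.

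On data simulated with known changes, the SJL/J comparison recovered 73.1% of changes of 1 log2 unit and the interaction 38.8%. Each simulation changed only 200 genes, with noise independent between genes and no run or Gapdh difference. In the SJL/J data 55.6% of genes were called, so these shares need not hold there. Alternatives were quantile normalization, median centring, another pseudocount, floor, filter and probe set rule, no trend, array weights, the Gapdh ratio as a covariate, a replicate block, other sets of arrays, run as a block and leaving out each array.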

Additional observations from a re-analysis of the deposited data

Results flagged for a closer look

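Within the 4 left ventricle arrays, single arrays stood apart from the other three for some genes by Dixon's test, which chance passes in about 1 in 20 groups. Array 5, which had the lowest Gapdh ratio (0.101), was highest for Myh6 (24276), Actc1 (16074) and Lpl (14014), and lowest for Tnnt2 (5650.4), Myl3 (3644) and Kcnd2 (135). Array 4 was highest for Nppb (6869.8) and Perp (1673), array 3 was highest for Ech1 (6504) and Acadl (2575) and lowest for Chrna1 (4.9), and array 2 was highest for Slc27a1 (35.2) and Myh8 (10.3) and lowest for Fhl1 (2063). Chrna1, Slc27a1 and Myh8 were below 68.8 on every left ventricle array, and Perp differed little between arrays. Whether more genes passed than chance gives, and whether the Gapdh ratio plays a part, was not tested.

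The tissue difference of SJL/J minus that of C57BL/6 passed limma's interaction test for the following genes, all on the log2 scale. Among energy genes it was -4.02 for Cox8b, -3.93 for Atp5e, -3.71 for Uqcr11, -3.49 for Atp5k, -3.08 for Atp5l, -2.41 for Cox7a1 and -1.76 for Uqcrh. Among stress and fat-related genes it was -5.74 for Ucp1, -4.775 for Mt2, -4.57 for Rrad, -4.52 for Ankrd1, -4.14 for Cidea and -4.08 for Mt1. It was -4.02 for Fkbp8 and -3.99 for the fast light chain Myl1. Among immune genes it was -3.44 for H2-Ab1, -2.92 for H2-Aa, -2.61 for C1qa and -2.21 for Ctss. It was positive for Lrig1 (3.45), Inmt (3.404), Ifit2 (3.21), Fgfbp1 (3.08), Mycn (2.97), Cd55 (2.93), Ces1d (2.91) and Mup5 (2.89). All 27 of these interactions were also called with the Gapdh ratio as a covariate, and 23 with signals under 68.8 set to it, the exceptions being Lrig1, Inmt, Fgfbp1 and Mup5. Gapdh ratios did not overlap between the left ventricle arrays of the strains, so the covariate cannot tell RNA integrity from strain.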

How the results depend on the processing

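The count of 2957 genes called between SJL/J left ventricle and quadriceps was 1120 with the Gapdh ratio as a covariate and 17 with all 10 SJL/J arrays and run as a block, and lay between 2053 and 3111 under the other alternatives. Leaving out 1 array gave 2557 to 3010. The interaction count of 1241 was 1936 with array weights and 985 to 1900 when 1 array was left out, the highest without C57BL/6 quadriceps 4, and the C57BL/6 count of 2694 was 2413 to 3088. Without C57BL/6 left ventricle 5 and quadriceps 2 the interaction and C57BL/6 counts were 1037 and 2219. The causes of these shifts were not tested. Direction turned for Tnni1 (0.31), Hk1 (0.083) and Col1a1 (0.35) with the Gapdh covariate, and for Mb (-0.16) and Eya1 (-0.27) with the mean of all probe sets, none of them called. Of 191 called gene results, 130 kept their call and direction under every alternative computed, and 110 of 4258 alternative values lost a call. Same-numbered SJL/J arrays of the 2 tissues showed no shared deviation from their group means (correlations -0.01, -0.00 and 0.01). These values cannot show whether a heart and a muscle came from the same mouse. With a replicate block 2864 genes were called between the SJL/J tissues, 2507 between the C57BL/6 tissues and 891 for the interaction. Signals below the median of 68.8 limit the folds of genes that are dim in 1 tissue.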
